A study of Mus musculus with 15 samples.

Results

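The genes of the cytosolic ribosome were followed through 15 RNA-seq samples of mouse ESC, embryonic stem cells, which are pluripotent and self-renewing. Members were taken by symbol: genes whose name is Rpl or Rps followed by a digit, with Rpsa, Rplp0, Rplp1 and Rplp2, and without the ribosomal S6 kinases and Rps19bp1, which are not part of the ribosome. The rule also leaves out 1 core gene of the small subunit, which was not analysed here. This gave 89 of the 21662 genes counted. They comprise 30 genes of the small subunit and 46 of the large subunit (the 76 core genes), 9 paralogs and 4 pseudogene symbols. Paralogs are further copies of a core gene with a coding sequence of their own. Rpl32l was placed among them by its symbol alone. The pseudogene symbols end in -ps and a number, the form used for pseudogenes.

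The cytosolic ribosome makes nearly all proteins of a cell. Its small subunit reads the mRNA and its large subunit joins the amino acids. Most core proteins occur in a single copy per ribosome, and their mRNAs are among the most abundant in growing cells. Many of these mRNAs begin with a C followed by a run of pyrimidines, the 5′ terminal oligopyrimidine tract, through which their translation follows nutrient and growth signals. Most ribosomal protein genes have also left many retrocopies in mammalian genomes, which are intron-free copies of the mRNA.

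The study asked whether loss of Hmga1, an AT-hook protein of chromatin, alters transcription in ESC, a line of mixed 129Sv-C57Bl/6 background. The first experiment holds the parental wild type (WT, samples a, b and c), an Hmga1 KO clone in which Cas9 was used to shift the reading frame (a and b), and this KO with a tagged cDNA of Hmga1 or of Hmga2 inserted at a fixed genomic site, the Hmga1 add-back (a and b) and the Hmga2 add-back (a and b), so that the add-backs also carry the KO. The second experiment holds 3 samples of WT and 3 of a line that lacks the complete coding sequence of Hmga1, the full deletion, each lettered a, b and c. Cultures were harvested on different days, and each genotype is represented by a single line, so that genotype and clone cannot be told apart, and p-values measure the spread between cultures of 1 line. Ribosomal RNA was removed from total RNA before strand-specific libraries were made, and the values are counts of reads per gene. In the first experiment the letters are batches of library preparation and sequencing, and batch c holds WT only.

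Counts on all genes summed to between 13465399 and 34952136 per sample. Levels are in CPM, each count divided by the TMM-normalised size of its library. The targeted gene was checked first. Hmga1 had 464, 276 and 221 CPM in WT (a to c), and 217 and 96.1 CPM in KO a and b, so that WT c and KO a were nearly alike. A frameshift can leave RNA that is still counted, and per the study this KO makes a transcript without the targeted exon, so that the counts are a weak check of the KO label. Hmga1 had 184 and 123 CPM in the Hmga1 add-back a and b, which is below KO in batch a and above KO in batch b. The counts are thus a weak check of the Hmga1 add-back label too. In the second experiment Hmga1 had 310 to 357 CPM in WT and 10.9 to 12.3 CPM in the full deletion. Hmga2 had 249 and 222 CPM in its add-back and at most 23.8 CPM in each other sample. The 8 stem cell markers were detected in all 15 samples, with a sum of 4022 to 7421 CPM, and 7 fibroblast markers (ESC may be grown on feeder fibroblasts) summed to 2.21 to 13.4 CPM. The 8 markers of other lineages summed to 43.3 to 109.6 CPM. WT b of the second experiment stood apart: its TMM factor was 0.752, against 0.986 to 1.12 in the other 5 samples, and its stem cell marker sum was the 7421 CPM. Results that rest on it are given with and without it.

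The bases around the annotated start are shown for 4 core genes and 4 paralogs that recur below, since these genes differ in the pyrimidine run near the start. Each line covers the 15 bases before and the 15 from the annotated start, from RefSeq on GRCm38.p6, 5′ to 3′ on the gene's strand. Capitals mark the longest run of C and T.
Rps6: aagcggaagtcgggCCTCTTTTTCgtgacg
Rplp2: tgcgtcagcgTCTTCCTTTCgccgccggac
Rpl35: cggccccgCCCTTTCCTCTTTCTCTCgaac
Rpl38: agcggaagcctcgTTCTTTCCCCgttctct
Rpl22l1: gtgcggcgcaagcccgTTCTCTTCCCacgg
Rpl39l: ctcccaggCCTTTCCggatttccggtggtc
Rpl10l: tttggCCTCCattttgcggctggcggtggg
Rpl7l1: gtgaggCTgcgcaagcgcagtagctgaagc
They lie at chr4:86857353-86857382, chr7:141447636-141447665, chr2:39005117-39005146, chr11:114668565-114668594, chr3:28805493-28805522, chr16:10170213-10170242, chr12:66284387-66284416 and chr17:46782642-46782671, in the order shown. The Rps6, Rplp2, Rpl35, Rpl38 and Rpl22l1 windows hold a run of 10 to 18 pyrimidines. The longest run has 7 bases at Rpl39l, 5 at Rpl10l and 2 at Rpl7l1. Each of these shorter runs ends before the annotated start and so lies outside the annotated mRNA.

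RefSeq gave promoter windows for 64 of the 89 members. A run of at least 7 C or T within 15 bases of an annotated start was present in 31 of 66 windows of core genes (47%) and in 4 of 10 windows of paralogs and pseudogene symbols (40%), against 18.6% of all 32851 promoter windows. Over the whole 300 bases of a window and on either strand, CCGGAAG, the letters of a common binding sequence of ETS factors, was present in 36.4% of core windows and 8.86% of all. ATGGCGG, letters found in sites of YY1, was present in 18.2% and 4.05%, and TATAAA in 9.09% and 13.6%. CCGGAAG read on the other strand holds pyrimidines and can overlap such a run. A match describes sequence and no binding.

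The sequence of these genes limits what a read count on one of them means, and so it is described before the counts. The authors' reads, cut to 47 bases, were aligned to the mm9 assembly, and a read that fitted several places equally well was put at 1 of them at random. Of the 89 members, 87 were matched to the annotation of that assembly (NCBIM37), on 19 chromosomes and with 4 on chromosome X. Copies were counted for 1 transcript per gene, the one nearest in length to the exonic bases on which reads were counted. It can cover only part of them, as in Rps12 with 517 against 1803 bases. In the median core gene, 51.2% of the 47-base stretches of that transcript's exons had at least 1 further exact copy in the genome. The median was 0% in 77 genes of the mitochondrial ribosome. The range over core genes was 0% to 100%. Rps27 (chromosome 3, 90016593 to 90017573) was at 100%, Rps4x at 93%, Rpl36a at 92.1% and Rpl3 at 89%, whereas Rps3 was at 2.13% and Rpl22 at 4.83%. Stretches that cross an exon junction made up a median 26.7% of a core transcript, and a median 90.9% of those stretches were found uncut elsewhere in the genome. Bowtie does not split a read over an intron, so that a read across a junction can be placed without mismatch only at such a copy.

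**Figure D1:**
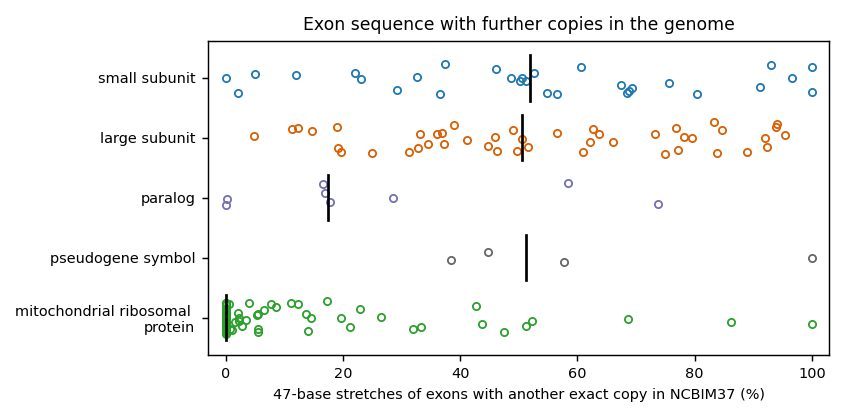
Percentage of the 47-base stretches of the exons of 1 transcript per gene that have another exact copy in the NCBIM37 genome, 1 circle per gene, for small subunit, large subunit, paralog, pseudogene-symbol and mitochondrial ribosomal protein genes, with a black bar at the median. The core genes spread from 0% to 100% with a median of 51.2%, and the mitochondrial ribosomal protein genes have a median of 0%.

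The 4 pseudogene symbols share much of their sequence with the gene they are named for. Rpl34-ps1 (chromosome 6, 71074583 to 71074994) had a further copy for 100% of its stretches, and 74.3% of them occur in Rpl34. Rps15a-ps6 shares 57.4% and Rps15a-ps4 shares 40.5% with Rps15a, and Rps19-ps3 shares 26.1% with Rps19. Their counts may be those of the parent genes in unknown part. Among the paralogs, Rpl3l (0%) and Rpl39l (0.15%) had nearly no repeated stretches, Rpl7l1 had 16.5%, Rpl10l 28.6%, Rpl22l1 58.4% and Rpl36al 73.7%. Values of the last 2 and of the pseudogene symbols are therefore uncertain. Rpl41 and Rpl32l were not matched, so that their share of repeated stretches is not known. Whether reads of Rpl32l can be told from those of Rpl32 is therefore also not known.

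Together the members took between 2.58% and 3.47% of all counts on genes in the 15 samples. The 3 WT samples of the first experiment had 2.58%, 2.6% and 3.43%, KO a and b had 3% and 2.73%, the Hmga1 add-back had 2.98% and 2.81%, and the Hmga2 add-back had 3.08% and 2.62%. WT c thus held the highest share of its experiment, and within batches a and b the genotypes spanned less than the 3 WT samples. In the second experiment WT a, b and c had 3.08%, 2.7% and 2.96%, and the full deletion had 3.22%, 3.47% and 3.31%. As shares of summed counts the groups here did not overlap. In TMM-normalised CPM the members summed to 31048, 35886 and 30028 in WT and to 28854, 31642 and 29833 in the full deletion. On that scale the groups overlapped, with the highest sum in WT b and the lowest in the full deletion. The difference and its direction thus depended on the scaling. In bulk RNA, fewer cells that express a gene and less of its RNA per cell cannot be told apart.

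The large subunit genes took 1.68% to 2.55% of the counts and the small subunit genes 0.46% to 0.967%. The 0.46% was in WT b of the second experiment. WT a and c had 0.636% and 0.63% there and the full deletion 0.737% to 0.776%. These small subunit shares of summed counts did not overlap between the groups, with or without WT b. Paralogs took 0.101% to 0.129% in every sample.

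**Figure D2:**
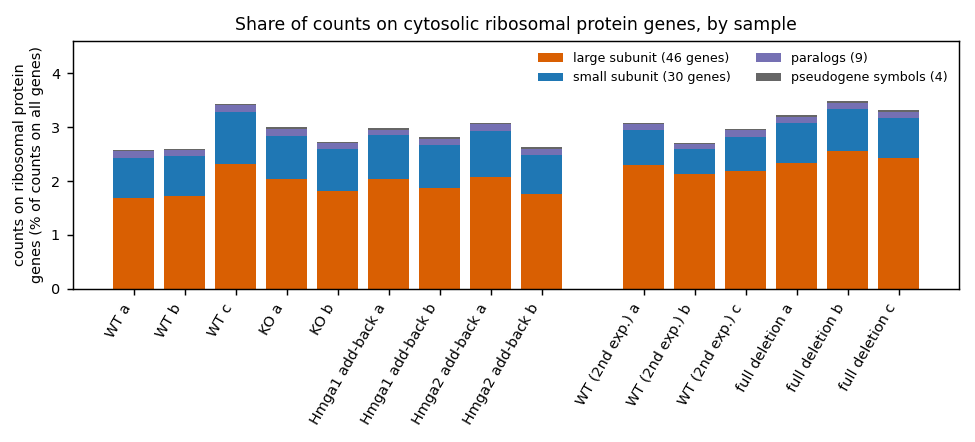
Counts on cytosolic ribosomal protein genes as a percentage of the counts on all genes, 1 stacked bar per sample, split into 46 large subunit genes, 30 small subunit genes, 9 paralogs and 4 pseudogene symbols. The totals run from 2.58% in WT a to 3.47% in full deletion b, and WT c has the highest total of the first experiment at 3.43%.

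Per length, as CPM for each kilobase of exon (RPKM), core genes differed widely in level. Rpl4, a protein that lines the exit tunnel of the large subunit, was highest in WT of the first experiment at 2349 ± 470 RPKM (SD, n = 3). Rpl26, also of the large subunit, had 1374 ± 695 RPKM and Rplp2, an acidic protein of the stalk that recruits translation factors, 1291 ± 697 RPKM. The SD of Rpl26 and of Rplp2 exceeded the distance between them, so that their order is not resolved. Rps15a was the lowest core gene at 27.2 ± 6.46 RPKM, and its annotated exons span 5134 bases, against a core median of 777.5. Its rank thus depends on that annotation.

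The paralogs lay mostly below their core partners. Rpl3l, the partner of Rpl3 known from skeletal muscle and heart, had 0.374 ± 0.0995 RPKM and was the lowest member, against 174 ± 23.7 RPKM for Rpl3. It was counted 8 to 40 times per sample. Rpl39l, a copy of Rpl39 known from the male germ line, had 14.5 ± 4.93 RPKM, against 185 ± 42.4 RPKM for Rpl39. Rpl22l1, the copy of Rpl22, had 69.2 ± 36.3 RPKM and Rpl22 376 ± 180 RPKM. Rpl10l, an intron-free autosomal copy of the X-linked Rpl10, had 59.6 ± 16.2 RPKM against 244 ± 30.1. Rpl36al at 237 ± 19.4 RPKM and Rps27l at 139 ± 27.3 RPKM were closer to Rpl36a at 450 ± 125 and Rps27 at 104 ± 29.9, and these latter pairs include genes with much repeated sequence. Rps4l had 271 ± 41.3 RPKM and X-linked Rps4x 195 ± 50.9. Rpl32l had 719 ± 80.5 RPKM and Rpl7l1, a relative of Rpl7, 78.4 ± 3.33.

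Hmga1 KO was compared with WT in a fit of all 9 samples with batch as a term, so that the fold changes rest on batches a and b. By edgeR's quasi-likelihood test no ribosomal protein gene passed a Benjamini-Hochberg adjusted p under 0.05, where 0.0647% of the 13912 genes tested passed. None passed an adjusted p under 0.01 with at least a 2-fold change, which 0.0216% of genes did. DESeq2 and limma-trend also called 0 members at 0.05. At an unadjusted p under 0.05 there were 10 of 89 members (11.2%), all higher in KO, against 12.6% of all genes. The smallest adjusted p of a member was 0.284, for Rpl39l. Of the 17 other translation genes, 77 mitochondrial ribosomal protein genes and 85 respiratory chain genes tested, 0 were called at 0.05 in this or any other genotype comparison of the first experiment.

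The members' fold changes nevertheless lay mostly on one side. Of 76 core genes, 65 had a log2 fold change above 0, with a median of 0.12, against 48.6% and a median of -0.01 for all genes tested. The small subunit had a median of 0.05 (24 of 30 above 0) and the large subunit 0.17 (41 of 46). Within batch a the median log2 ratio of KO to WT was 0.23 and within batch b 0.03, and 43 core genes (56.6%) were higher in KO in both batches and 1 (1.32%) was lower in both, against 30% and 32.1% of all genes. When the batch term was left out, so that WT c entered, the median was -0.04, with 31 core genes above 0. The direction over the list therefore turned with the use of WT c, and no single gene carried a call. Markers of other lineages summed to 74.6 to 109.6 CPM in WT and to 46.3 to 56.3 CPM in KO, and stem cell markers to 4724 to 5331 CPM in WT and to 5556 to 5683 CPM in KO. Neither sum overlapped between the groups, and their part in the shift was not tested.

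The largest log2 fold changes in KO were 0.64 ± 0.49 (SE) for Rpl3l and 0.60 ± 0.25 for Rpl38, a large subunit protein needed for the patterning of the axial skeleton. The lowest were -0.17 ± 0.16 for Rpl7l1 and -0.14 ± 0.15 for Rpl7a. Rpl38 had 51.4, 41.9 and 50 CPM in WT and 113 and 41.4 CPM in KO. Only KO a lay above WT, and the edgeR adjusted p was 0.375. Among proteins whose loss is tied to disease or p53 signalling, the log2 fold change was 0.07 ± 0.11 for Rps19, mutated in Diamond-Blackfan anaemia, 0.22 ± 0.12 for Rpl5 and 0.08 ± 0.13 for Rpl11, which bind Mdm2 when ribosome assembly is disturbed. It was 0.10 ± 0.12 for Rps6, the substrate of the S6 kinases, and 0.04 ± 0.10 for Rpsa, 0.07 ± 0.17 for Rps2, 0.12 ± 0.13 for Rps3 and -0.03 ± 0.13 for Rplp0, the base of the stalk. None of these passed the test.

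The add-backs were each compared with WT and with KO. At an adjusted p under 0.05 (edgeR), 0 members were called for the Hmga1 add-back, where 0.0431% of all genes were, and 0 for the Hmga2 add-back, where 0.165% were, each against WT. Against KO the count was 0 in either add-back (background 0% for Hmga1 and 0.0144% for Hmga2), and it was 0 between the add-backs (0.0144%). With the stricter rule no member was called either, where the background was 0.0144%, 0.0647%, 0%, 0.00719% and 0.00719% in the same order. At an unadjusted p under 0.05 there were 6, 4, 0, 1 and 1 members (6.74%, 4.49%, 0%, 1.12% and 1.12%), against 13.3%, 16.9%, 2.8%, 5.09% and 1.27% of all genes. DESeq2 called 1 member in each comparison of the Hmga2 add-back with WT and with KO, and limma-trend called 0 in all 5. The shares of all genes given above are those of edgeR. The DESeq2 calls have no such share beside them and cannot be weighed against one.

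Against WT the core median was 0.11 in cells given Hmga1 and 0.06 in cells given Hmga2, and against KO it was -0.02 and -0.07, and -0.05 between the Hmga2 and the Hmga1 add-back. Within batches a and b the median log2 ratio of core genes to WT was 0.12 and 0.11 for the Hmga1 add-back. For the Hmga2 add-back it was 0.17 and -0.03. Against KO it was -0.12 and 0.09 for the Hmga1 add-back and -0.04 and -0.06 for the Hmga2 add-back. Between the Hmga2 and the Hmga1 add-back it was 0.06 and -0.14. The sign thus differed between batches for the Hmga2 add-back against WT, the Hmga1 add-back against KO and between the add-backs. These comparisons share samples with one another. Without the batch term the medians against WT were -0.04 and -0.10. With the batch term kept, the medians against WT were also taken across the 3 other scalings of the libraries. They lay between 0.10 and 0.15 for the Hmga1 add-back and between 0.05 and 0.12 for the Hmga2 add-back.

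The paralog Rpl39l had the smallest p of the members in the Hmga2 add-back against KO. It had 7.91, 15.8 and 11.3 CPM in WT, 13.4 and 20.5 in KO, 9.08 and 20 in the Hmga1 add-back and 5.42 and 10.6 in the Hmga2 add-back, from 151 to 479 counts. In each batch the Hmga2 add-back was the lowest of the 4 genotypes. The log2 fold change against KO was -1.14 ± 0.19 (SE), with an unadjusted p of 2.5e-04 and an adjusted p of 0.31 by edgeR, while DESeq2 gave an adjusted p of 0.0036. Against WT it was -0.56 ± 0.19 (edgeR adjusted p = 0.215) and against the Hmga1 add-back -0.83 ± 0.19 (adjusted p = 1). Only 0.15% of the stretches of Rpl39l have a further copy, as given above.

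Rpl10l was the member with the smallest p in the Hmga2 add-back against WT. It had 54.8, 48.3 and 79.7 CPM in WT and 96.1 and 67.3 CPM in the Hmga2 add-back, with KO at 79.8 and 52.2. WT c lay within the range of the add-back. The log2 fold change was 0.65 ± 0.14 (SE) and the edgeR adjusted p 0.112, and 0.0133 by DESeq2. Rpl34-ps1 gave 0.62 ± 0.18 in the Hmga1 add-back against WT (edgeR adjusted p = 0.246), and it cannot be told apart from Rpl34 by most of its reads.

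These results moved with 1 library. Without WT b of the first experiment, edgeR at 0.05 called 3 members higher in KO (Rpl34-ps1, Rpl39 and Rpl34), 5 higher in the Hmga1 add-back (these 3, Rpl22 and Rpl36a) and 2 higher in the Hmga2 add-back (Rpl10l and Rpl34-ps1), while the count over all genes rose to 736, 806 and 1312 (5.25%, 5.75% and 9.36%). These genes were chosen after their values were seen. With that library left out, batch b holds no WT, and each comparison with WT rests on the single WT sample of batch a.

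The batches themselves differed far more than the genotypes. In the same fit, batch b was compared with batch a over the 4 genotypes, each of which has 1 sample in each. At an adjusted p under 0.05, 51 of 89 members differed, 29 higher and 22 lower in batch b, where 35.6% of all genes differed (18.6% higher and 17.1% lower). At the stricter rule 2 members were called, where 2.34% of all genes were. For the small subunit 13 genes were higher and 6 lower in batch b, and for the large subunit 10 and 14. The core median was 0.03, so that gains and losses nearly balanced. In all 4 genotypes, 28 core genes (36.8%) were higher in b and 28 were lower in b, while 20 were mixed. Of all genes tested, 25.7% were higher and 25.9% lower in b in all 4. Batch a also had more counts than batch b in every genotype. Total counts and batch cannot be told apart.

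Rpl22l1 (chromosome 3, 28704358 to 28706274, 58.4% of stretches with a further copy) had the largest batch difference. It had 13, 11.8, 10.5 and 14.7 CPM in batch a, in the order WT, KO, Hmga1 and Hmga2 add-back, and 43.2, 50.9, 55.8 and 50 CPM in batch b. The batches did not overlap, and WT c was at 42.8 CPM. The log2 difference was 2 ± 0.13 (SE) with an edgeR adjusted p of 3.0e-04. Rpl35, a protein at the exit of the tunnel, went the other way. It had 258, 344, 318 and 343 CPM in batch a and 147, 146, 155 and 128 CPM in batch b, a log2 difference of -1.13 ± 0.11 (adjusted p = 7.5e-04).

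Others moved less. By smallest p, Rps9, Rplp2, Rpl30 and Rps16 followed Rpl22l1 among those higher in batch b, with log2 differences of 0.61 ± 0.07, 0.78 ± 0.10, 0.67 ± 0.08 and 0.65 ± 0.09 (SE). Rpl18, Rps15, Rps14 and Rpl34-ps1 followed Rpl35 among those lower, with -0.94 ± 0.09, -0.70 ± 0.09, -0.76 ± 0.11 and -0.89 ± 0.13. Rpl39l was also higher in batch b, by 0.93 ± 0.13. Of the 17 other translation genes, which encode elongation factors and similar proteins, 6 were higher and 6 lower. Of 77 mitochondrial ribosomal protein genes 22 were higher and 13 lower, and of 85 respiratory chain genes 25 and 18. Leaving out any 1 sample of KO or of an add-back lowered the count of members to between 32 and 34, with the share of all genes called falling to between 18% and 19.4%. Without KO a or KO b Rpl35 was not called by the stricter rule.

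**Figure D3:**
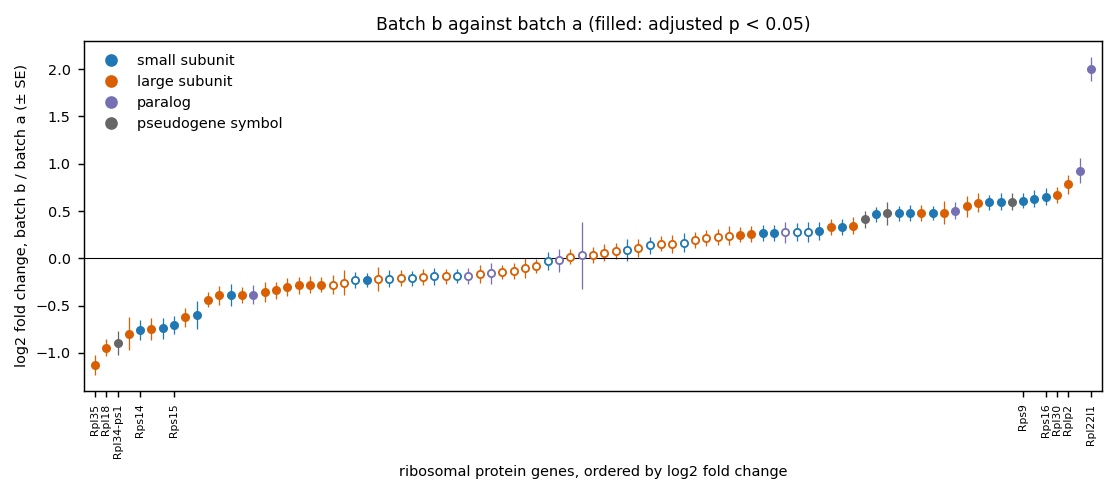
Log2 fold change of batch b over batch a with its standard error for each of the 89 members, ordered by size and coloured by class, with the 5 of smallest p in each direction labelled, filled where the adjusted p is under 0.05. Filled points lie on both sides of 0, with 29 higher and 22 lower, and Rpl22l1 stands alone at 2.

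Across the 75 core genes with matched exons, the batch difference had a Spearman correlation of 0.392 with the AT content of the exons, and of 0.271 with exon length over all 76. Over all 13641 matched genes tested, the correlation with exon AT content was 0.591. These are descriptions over genes of the same libraries. The share of repeated stretches gave -0.0758 with the batch difference over core genes. Exon AT content was not tied to the batch difference alone. Over all matched genes tested its correlation was -0.351 with the full deletion fold change and -0.144 with that of KO. Over core genes these were -0.173 and -0.198. The part of AT content in any comparison was not tested.

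The full deletion was compared with its own WT over 6 samples with no batch term. At an adjusted p under 0.05 by edgeR, 1 member rose and 1 fell, where 8.25% of the 13098 genes tested were called. None was called by the stricter rule, which 0.0687% of genes passed. DESeq2 called 19 members at 0.05 and limma-trend 1. Over all genes DESeq2 also called more than edgeR did, as given in the last section. The larger count by DESeq2 was thus not particular to the members. At an unadjusted p under 0.05 there were 30 members (33.7%), 21 higher and 9 lower, against 37% of all genes.

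The gene that rose was Rpl23a, a large subunit protein at the exit of the tunnel (chromosome 11, 77994434 to 77997086, 93.9% of stretches with a further copy). It had 109, 91.1 and 100 CPM in WT and 133, 137 and 137 CPM in the full deletion. All 3 deleted samples lay above WT, with a log2 fold change of 0.44 ± 0.10 (SE, adjusted p = 0.046). The gene that fell was the paralog Rpl10l (chromosome 12, 67384368 to 67385388, a single exon). It had 115.5, 211 and 137 CPM in WT and 79.4, 84.5 and 83 CPM in the full deletion, a log2 fold change of -0.91 ± 0.21 (adjusted p = 0.046). Its highest value was in WT b.

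The core median was 0.25, against 0.04 over all genes, and 50 of 76 core genes lay above 0. For 34 of the core genes (44.7%) all 3 deleted samples exceeded all 3 WT samples, where 26.7% of all genes did so. For 8 (10.5%) all lay below, where 24.6% of all genes did. The small subunit had 14 higher and 1 lower by this count and the large subunit 20 and 7. With libraries scaled by their summed counts alone, the median of all genes itself moved to 0.32 and that of the core genes to 0.50. All 4 pseudogene symbols had fold changes above 0 and 6 of 9 paralogs below 0. The median was 0.01 for mitochondrial ribosomal protein genes (1 called higher and 1 lower) and 0.09 for the other translation genes (0 called), and 2 of 87 respiratory chain genes were higher and 7 lower. Stem cell markers summed to 4022 to 4129 CPM in the deletion and to 4551, 7421 and 4360 CPM in its WT, and their part in these results was not tested.

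WT b decided much of this comparison. Against the mean of WT a and c, 8 core genes were at least 2-fold lower in WT b and 3 were at least 2-fold higher (14.5% together, against 12.7% of all genes), with a core median of -0.40, while WT a and WT c differed 2-fold in 0 core genes. Rpl37 had 1620, 4089 and 1661 CPM in the WT samples and 974 to 1296 CPM in the full deletion. Rps2 had 107, 31.4 and 94.4 CPM in WT and 149 to 174 CPM in the full deletion. Both genes thus had WT b farthest from the deletion, on opposite sides. Rps3a1, Rpl12 and Rplp1 were also high in WT b (1570, 1918 and 2513 CPM) and Rps21 was low (10.5 CPM).

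Without WT b, 52 of 89 members were called at 0.05, 35 higher and 17 lower, where 20.5% of all genes were called higher and 22% lower. None passed the stricter rule, which 2.75% of genes passed. The core median was 0.13, and 65 of 76 core genes had the same sign as with all samples. Rpl18 (log2 fold change 0.67 ± 0.06, edgeR adjusted p = 1.6e-07), Rps2 (0.67 ± 0.07, 7.4e-07), Rps3 (0.49 ± 0.06, 1.9e-06) and Rps16 (0.62 ± 0.07, 2.6e-06) had the smallest p of those higher. Rpl7l1 (-0.71 ± 0.07, 2.1e-07), Rpl10l (-0.61 ± 0.07, 1.1e-06) and Rpl37 (-0.51 ± 0.08, 2.7e-05) had the smallest of those lower. By contrast, leaving out WT c or any 1 sample of the full deletion left 0 members called, with 3 or 4 genes called in all, and leaving out WT a gave 7.

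Several paralogs were lower in the full deletion without WT b. Rpl7l1, whose relatives act in ribosome assembly, had 249, 544 and 299 CPM in WT and 159, 175 and 169 CPM in the full deletion. Even the lowest WT sample lay above all deleted samples. With all samples its log2 fold change was -1.12 ± 0.28 (edgeR adjusted p = 0.0504). Rpl36al had 151, 155 and 142 CPM in WT and 104, 127 and 108 CPM in the deletion, and -0.37 ± 0.07 without WT b (adjusted p = 3.8e-04). In all, 5 of 9 paralogs were called lower without WT b, namely Rpl7l1, Rpl36al and Rpl10l with Rps4l (-0.19 ± 0.06) and Rps27l (-0.30 ± 0.10), and 1 was called higher, Rpl32l (0.31 ± 0.06). In the same fit 22% of all genes were called lower and 20.5% higher. Of 77 mitochondrial ribosomal protein genes 24 were called lower and 6 higher, and of 86 respiratory chain genes 25 and 19. Lower calls were thus not particular to the paralogs.

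**Figure D4:**
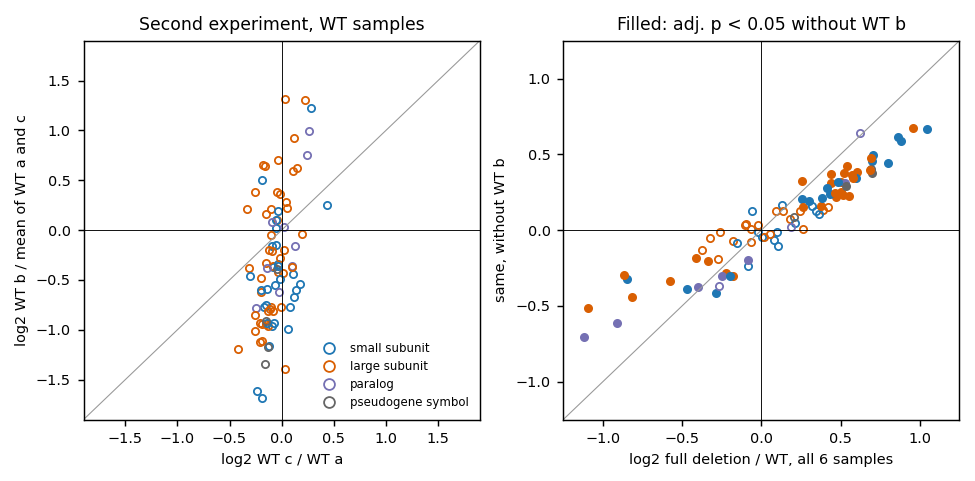
Left, log2 ratio of WT b to the mean of WT a and c against the log2 ratio of WT c to WT a in the second experiment, 1 circle per member. Right, log2 fold change of the full deletion over WT without WT b against that with all 6 samples, filled where the adjusted p without WT b is under 0.05 (52 of 89 members), with the line of equality in grey. WT b spreads over a wider range on the left axis than WT c does on the horizontal one.

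Rps6, whose start is shown above with a long pyrimidine run, had 372, 322 and 350 CPM in WT and 332, 366 and 350 CPM in the deletion, a log2 fold change of 0.00 ± 0.11. Rplp2 gave 0.58 ± 0.23 with all samples (adjusted p = 0.117) and 0.34 ± 0.06 without WT b (2.2e-04). Rpl38 gave 0.69 ± 0.30 (0.143) and 0.40 ± 0.14 (0.0244), and Rpl35 0.24 ± 0.13 and 0.13 ± 0.06, which passed in neither. Rpl39l gave -0.27 ± 0.23 and -0.37 ± 0.17, and Rpl22l1 0.19 ± 0.21 and 0.02 ± 0.18, with at most 102 counts of Rpl22l1 in a sample of this experiment.

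The effects of the 2 lines that lost Hmga1 were compared in a joint fit of all 15 samples, with each line set against its own WT. No member differed at an adjusted p under 0.05 by edgeR, where 0.307% of 13671 genes did, or by the stricter rule (0.0951%). DESeq2 called 1 member and limma-trend 0, with no share of all genes given for either. By edgeR, 17 members (19.1%) had an unadjusted p under 0.05, against 18.4% of all genes. The differences of log2 fold changes, full deletion minus KO, were 0.97 ± 0.50 (SE) for Rps2, 0.91 ± 0.30 for Rps16, -1.44 ± 0.48 for Rpl37 and -1.26 ± 0.31 for Rpl10l (edgeR adjusted p = 0.12). Rpl10l thus had 0.34 ± 0.14 in KO and -0.91 ± 0.21 in the full deletion. Without WT b of the second experiment 4 members differed, Rps16 (0.64), Rpl10l (-0.99), Rpl37 (-0.87) and Rpl24 (-0.60), while 4.87% of all genes were called in the same fit. Without WT a of that experiment Rpl10l alone of the members did (-1.44), and 0.336% of all genes did.

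**Figure D5:**
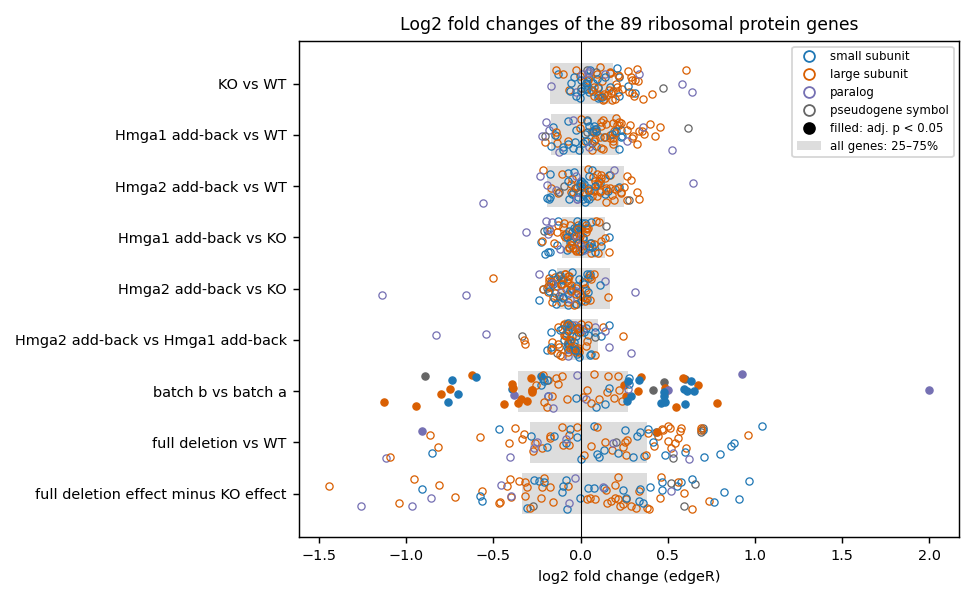
Log2 fold changes of the 89 members in the 9 comparisons, 1 circle per gene coloured by class and filled where the adjusted p is under 0.05, over grey bars for the middle 50% of all genes tested. Filled circles appear for batch b against batch a (51 members) and for the full deletion against WT (2 members) only.

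The WT samples of the experiments also differed, and since their tables were normalised apart these values are set side by side with no test. Levels of 37 of 76 core genes lay lower in all 3 WT samples of the second experiment than in all 3 of the first, against 36.4% of all genes, and 14 lay higher, against 14.2%. For the small subunit 18 of 30 lay lower. Rps16 had 160, 235 and 237 CPM in the first experiment and 38.3, 19.2 and 34.8 CPM in the second. Rpl37 had 208, 203 and 449 CPM in the first and between 1620 and 4089 CPM in the second. Rpl22l1 had 13 to 43.2 CPM in the first and 2.76 to 4.27 CPM in the second. Over the core genes, the SD of the log2 ratio of WT a and c of the second experiment to WT of the first was 1.05, while the SD of the log2 fold changes was 0.13 for KO against WT, 0.43 for batch b against batch a and 0.44 for the full deletion against its WT.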

How the data were processed

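RNA was sequenced in 15 samples, in tables of 9 and 6. The deposited values are raw counts per gene. The authors mapped trimmed reads to mm9 by QuasR, which runs Bowtie, placed reads with several equal hits at random, and took for each UCSC known gene only reads of its own strand. The submitters' processing notes also name bcl2fastq 2.17. The files give the exonic width of each gene, from which RPKM was computed.

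TMM-normalised counts entered the quasi-likelihood test (edgeR 4.0.16, R 4.3.3), run on every gene whose counts averaged at least 10 over the experiment, with Benjamini-Hochberg adjustment over all of them. The script was tested on simulated data. All 89 members passed the filter in each experiment. Calls used an adjusted p under 0.05, or under 0.01 with at least a 2-fold change. The batch letter was a term in the first experiment, where the study states that letters are batches. The log2 difference of WT a and b correlated with that of KO at 0.530, of the Hmga1 add-back at 0.385 and of the Hmga2 add-back at 0.407 over genes. In the second experiment same-letter deviations correlated at 0.100, 0.111 and -0.057, so that its letters were not used as pairs.

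Alternatives were DESeq2 size factors, summed counts, TMM without the members, no filter, a minimum mean of 50 counts, DESeq2 1.42.0 (Wald test), limma-trend (limma 3.58.1, prior count 2), the groups compared alone, the batch term switched, and leaving out each sample. The members, lists and tests were chosen with earlier results of these data known. Genes with values were named by a fixed rule: all paralogs and pseudogene symbols, a list of 16 well-known core genes, the 3 highest and 3 lowest by RPKM in WT, and in each comparison up to 5 called genes in each direction by p, or the 2 highest and 2 lowest fold changes where none was called. Other genes named were chosen after their values were seen. Rpl32l was not on the list of paralogs and was added to it by its symbol. Sequence copies were counted in NCBIM37 for 1 transcript per gene of the GENCODE vM1 annotation. Some genes are not reported here. Plots used matplotlib 3.10.9.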

Additional observations from a re-analysis of the deposited data

How the results depend on the processing

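Counts of members called at an adjusted p under 0.05 changed as follows. In the Hmga2 add-back against WT, 1 member was called with the DESeq2 Wald test and 1 with the groups compared alone. In the Hmga2 add-back against KO, the DESeq2 Wald test called 1 member by each rule (Rpl39l). In the full deletion against WT the count was 1 with DESeq2 size factors, 0 with summed counts, 19 with the DESeq2 Wald test, 1 with limma-trend and 0 with a replicate block by letter, where 2 were called otherwise; by the stricter rule the DESeq2 Wald test called 1. In the difference between the full deletion and KO effects the Wald test called 1. Between batches, summed counts gave 4 by the stricter rule in place of 2. Leaving out a sample gave 0 to 3 members for KO, 0 to 5 for the Hmga1 add-back and 0 to 2 for the Hmga2 add-back against WT, 32 to 53 between batches (1 to 3 by the stricter rule), 0 to 52 in the full deletion, and 0 to 4 in the difference of effects. The cause of these changes was not tested. With a sample of KO or of an add-back left out, that group holds a single sample, and its comparison rests on the spread of the others. Leaving out the batch term called 0 members in each comparison of the first experiment. Over all genes the full deletion comparison had 1080 calls at 0.05, 396 with the replicate block, 664 with summed counts and 3232 with the Wald test. Counts were lowest for Rpl3l, with at most 40 in a sample, so that its relative counting error is the largest of the members. Reads of genes with many copies limit single-gene statements at any depth. No result met the criteria for a closer look, since no group has more than 3 samples.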
